A study of Rattus norvegicus with 14 samples.

Results

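Reelin, its receptors and adaptor, and a set of secreted proteins that share those receptors or act beside them at synapses were followed by gene in cultured rat hippocampal cells. The genes were chosen by symbol and number 10: Reln, Dab1, Lrp8, Vldlr, Lrp1, Lrp1b, Apoe, Clu, Sparcl1 and Thbs1. Of these, 9 were read from both tables of normalized read counts, among 18239 genes listed for neurons and 31791 for astrocytes, and Lrp1b was not analysed here. All 9 passed the filter on low values, a mean of at least 10 normalized counts, in both kinds of culture.

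The study asked how allopregnanolone (Allo), a neurosteroid made from progesterone, acts on embryonic hippocampal neurons and astrocytes held in an Aging Model (AM) medium with reduced supplements. Poly(A)-selected stranded RNA-seq libraries came from primary cultures of embryonic day 18 rats, with 4 AM-Veh and 4 AM-Allo libraries of neurons and 3 AM-Veh and 3 AM-Allo libraries of astrocytes. Treatment lasted 16 h in neurons and 24 h in astrocytes, with Allo at 100 nM, and followed a period in AM medium alone of 4 h for neurons and 24 h for astrocytes. The neuron vehicle was 0.001% ethanol. For neurons, taken at day 10, AM medium held less B27, and for astrocytes, which came from mixed glia, its serum was charcoal-stripped. Every library, controls included, was therefore from cells in AM medium. Neuron libraries are numbered 1-1, 1-2, 2-1 and 2-2 in each group, and those that share the first number are called a set here. What the numbers stand for is not given in the sources used here, so the p-values measure the spread between these libraries, which may be technical.

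Reelin is a large secreted glycoprotein, made by Cajal-Retzius cells in the embryonic hippocampus and later mainly by GABAergic interneurons. It binds the lipoprotein receptors Lrp8 (also called ApoER2) and Vldlr, and Src-family kinases then phosphorylate the adaptor Dab1, which is bound to the receptors' tails. The pathway is known for placing migrating neurons in layers and, in the mature hippocampus, for its action on dendrites and synapses. Apoe and Clu encode apolipoproteins that carry lipids between brain cells and bind receptors of this family, and Lrp1 is a large endocytic receptor for Apoe and many other ligands. Sparcl1 (hevin) and Thbs1 (thrombospondin 1) encode matricellular proteins that astrocytes secrete and that act on the formation of synapses.

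Neuron libraries had an estimated 19500000 to 25200000 reads on genes and astrocyte libraries 22200000 to 27800000, so the rarest value reported for a member, that of Thbs1 in neuron cultures, rests on over 100 reads. Neuron cultures held neuron markers at a sum of 1665 to 2009 CPM (5 of 6 genes of the list), where CPM are normalized counts scaled to a library sum of 1000000, but also astrocyte markers at 8898 to 11468 CPM (8 of 8 genes). Gfap alone, an astrocyte filament gene, averaged 94233 normalized counts in their AM-Veh libraries. Levels in neuron cultures can therefore not be assigned to neurons. Astrocyte cultures held astrocyte markers at 9832 to 10453 CPM, neuron markers at 148 to 181 CPM with Rbfox3 near 0 (0.46 normalized counts in AM-Veh), and mesenchymal markers at 2544 to 3009 CPM.

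The promoter windows of Reln and Thbs1 are shown because Reln is the member whose Allo response passed an adjusted test in one of the fits below, and Thbs1 the one whose level differed most between the cultures. Each is the 250 bases before the start of transcription, 5′ to 3′, from RefSeq on the GRCr8 assembly, another assembly than the annotation release the counts were made with. Reln lies on the plus strand at chr4:13628318-13628567 and Thbs1 on the plus strand at chr3:125510000-125510249. Capitals mark GC boxes, the letters GGGCGG on either strand, which is a known binding motif of Sp1 family factors.

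Reln: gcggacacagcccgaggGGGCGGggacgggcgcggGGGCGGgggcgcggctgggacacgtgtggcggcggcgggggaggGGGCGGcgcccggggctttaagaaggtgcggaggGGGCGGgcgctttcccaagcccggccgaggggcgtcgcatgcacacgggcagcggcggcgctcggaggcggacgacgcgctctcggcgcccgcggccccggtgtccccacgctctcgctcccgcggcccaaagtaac

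Thbs1: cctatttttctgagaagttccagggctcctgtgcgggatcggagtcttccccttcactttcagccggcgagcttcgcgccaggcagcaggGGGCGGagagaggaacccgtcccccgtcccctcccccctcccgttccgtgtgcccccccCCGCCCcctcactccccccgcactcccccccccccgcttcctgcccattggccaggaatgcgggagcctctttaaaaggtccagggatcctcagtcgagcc

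The Reln window holds 4 GC boxes and is 80.0% G and C, a share higher than in 98.9% of 33469 rat promoter windows of this length. The Thbs1 window holds 2 GC boxes and is 67.6% G and C. Windows were found for 7 of the 10 genes, 10 windows in all, since Apoe has 3, partly overlapping, and Dab1 has 2. A GC box is in 8 of these 10 windows, from 6 of the 7 genes, and in 30.5% of all windows. The members' windows are 51.6% to 80.0% G and C, where the median of all windows is 51.2%. No allowance was made for this, so the count of GC boxes is not a result about the members. The cAMP response element TGACGTCA, searched on both strands, is in none of the members' windows and in 1.59% of all windows, and its core TGACG, which it contains, is in none of them and in 18.2% of all. These matches are letters in a window, and no binding was measured.

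Before any treatment effect, the members split by kind of culture. Reelin, its 2 signalling receptors and Dab1 stood higher in the AM-Veh libraries of neuron cultures, and Clu, Lrp1 and Thbs1 in those of astrocyte cultures. The tables were normalized separately, so levels are given in CPM, each gene is compared only with itself, and no test was made. The kinds of culture also differed in medium, serum and hours, as given above, so a gap cannot be assigned to cell type alone.

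Reln stood at 87.9 ± 12.1 CPM (SD, n = 4) in neuron cultures and 25.2 ± 2.35 (SD, n = 3) in astrocyte cultures, 3.49 times higher in the former. The gap was wider for the receptors: Lrp8 was 12.8 times higher in neuron cultures (158 ± 10.4 against 12.3 ± 1.24 CPM) and Vldlr 5.33 times (91.2 ± 3.92 against 17.1 ± 0.600 CPM). Dab1 was 5.47 times higher there (120 ± 3.94 against 21.9 ± 2.05 CPM). For each of these 4 genes the lowest neuron library lay far above the highest astrocyte library.

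Lrp1, the endocytic receptor, had the opposite order, at 980 ± 29.8 CPM in neuron cultures and 3024 ± 42.5 in astrocyte cultures, 3.09 times higher in the latter. The apolipoproteins split: Apoe was 2.64 times higher in neuron cultures (6434 ± 344 against 2435 ± 50.3 CPM), while Clu was 14.1 times higher in astrocyte cultures (378 ± 12.6 against 5332 ± 152 CPM). The matricellular genes split as well. Sparcl1 was 2.75 times higher in neuron cultures (2453 ± 87.6 against 892 ± 62.0 CPM), and Thbs1 was 398 times higher in astrocyte cultures (8.41 ± 0.592 against 3345 ± 358 CPM). The Thbs1 gap is the widest of the 9. The summed level of 6 mesenchymal markers was 28.0 to 66.0 CPM in AM-Veh neuron libraries and 2544 to 3009 in AM-Veh astrocyte libraries, and their part in the gap was not tested. The mean was higher in astrocytes for 4 of the 6 (the collagens Col1a1, Col1a2 and Col3a1, and Pdgfrb), but not for Dcn, at 183 normalized counts in neurons and 5.86 in astrocytes, or Lum, at 11.9 and 8.11.

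**Figure D1:**
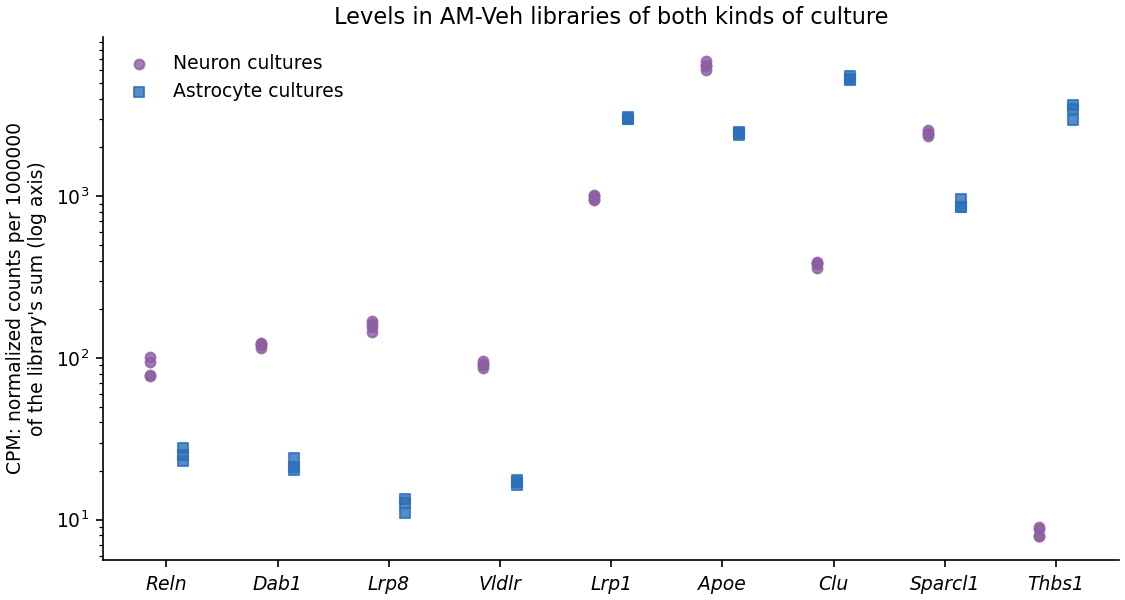
CPM, normalized counts per 1000000 of the library's sum (vertical log axis), of the 9 genes in the AM-Veh libraries, with 1 point for each of 4 neuron (circles) and 3 astrocyte (squares) libraries. The libraries of a culture lie close together for every gene, and Thbs1 shows the widest gap, with means of 8.41 in neuron and 3345 in astrocyte cultures.

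The next comparison, AM-Allo against AM-Veh in neuron cultures, asked whether Allo changed these genes in 16 h. Differences were small. Of the 9 genes, 6 had a higher mean log2 level in AM-Allo and 3 a lower one, with a median log2 fold change of 0.019, against −0.0015 over all 15314 genes tested. By limma, 1 of the 9 (Clu) had an unadjusted p under 0.05, where 5.69% of all genes tested did (3.21% higher and 2.48% lower), and 0 had an adjusted p under 0.05 (0.0261% of all genes). In 0 of the 9 did the groups fail to overlap (3.95% of all genes). With the set as a block, 5 of the 9 had an unadjusted p under 0.05 by limma (Reln, Lrp8, Vldlr, Lrp1 and Clu). Over all genes 11.0% did (5.76% higher and 5.24% lower). Of the 9, 1 (Reln) had an adjusted p under 0.05 with the block, where 0.679% of all genes did. Reln, Lrp8 and Lrp1 are also on the study's own list of genes changed by Allo in these neuron libraries. The members were chosen with earlier results known, so these counts beside all genes are not independent evidence.

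The sets differed in level: in 5 of the 9 genes (Reln, Dab1, Lrp8, Apoe and Sparcl1), every library of the second set was above every library of the first. Over all genes tested, 10.2% had the second set wholly above the first, and 19.6% had no overlap between the sets in either direction. Each AM-Allo library was also closest to the AM-Veh libraries of its own set, by the correlations given with the processing. Pairs named below are libraries of the same whole number. How many of all genes had the same direction in every pair, or no overlap within a set, was not computed. A set holds few libraries, so such outcomes are descriptions and not a result about the members.

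Reln, the ligand, showed the largest log2 difference of the 9 in neuron cultures. Its normalized counts were 1713, 1702, 2268 and 2113 in AM-Veh libraries 1-1, 1-2, 2-1 and 2-2, and 1393, 1272, 2115 and 1775 in the AM-Allo libraries of the same numbers. Reln was lower in AM-Allo in 4 of 4 numbered pairs, but the groups overlapped, because AM-Allo 2-1 and 2-2 lay above both AM-Veh libraries of the first set. The means were 1949 ± 286 and 1639 ± 383 (SD, n = 4), a log2 fold change of −0.27 (SE 0.15).

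Without the block this difference was within the spread of the libraries (limma, unadjusted p = 0.108, adjusted p = 0.920, and an exact two-sided permutation p of 0.286, where the smallest possible is 0.0286). With the block Reln fell, at the same log2 fold change with a 95% confidence interval of −0.38 to −0.15 (limma, unadjusted p = 0.000216, adjusted p = 0.0403). Within the first set alone, libraries 1-1 and 1-2 of each group, AM-Allo stood at 0.780 of AM-Veh without overlap (log2 fold change −0.36, limma adjusted p = 0.0181). Within the second set AM-Allo stood at 0.888 of AM-Veh with overlap (log2 fold change −0.18, limma adjusted p = 0.274). Each of these fits rests on few libraries, whose spread may be technical. Over the alternatives tried the adjusted p ran from 0.00371 to 0.999.

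The blocked call on Reln rested on single libraries. With the block, leaving out AM-Veh 1-1, 1-2 or 2-1 gave an adjusted p by limma of 0.0594, 0.141 or 0.142, and leaving out AM-Allo 1-1, 1-2 or 2-2 gave 0.0896, 0.0973 or 0.179. It was 0.0210 when AM-Veh 2-2 was left out and 0.00371 when AM-Allo 2-1 was. Reln stayed lower in AM-Allo in each of these fits, with log2 fold changes of −0.22 to −0.34 and unadjusted p-values by limma of 1.94e-06 to 0.00148.

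The list of GABAergic interneuron markers was read for 6 genes. With the block, 3 of them (Sst, Gad2 and Gad1) were lower in AM-Allo at an adjusted p under 0.05 by limma. Over all genes tested, 0.679% had such an adjusted p, in either direction. Without the block no marker did so, but 2 (Sst and Gad2) had an unadjusted p under 0.05, as did 5.69% of all genes. The summed level of the list (6 of 7 genes) was 218 to 283 CPM in AM-Veh and 129 to 242 in AM-Allo. Sst, the neuropeptide somatostatin, had normalized counts of 1683, 1598, 2114 and 1994 in the AM-Veh libraries in number order and 1112, 855, 1671 and 1380 in AM-Allo. It was lower in 4 of 4 numbered pairs, with a log2 fold change of −0.59 (limma, unadjusted p = 0.00677, adjusted p = 0.650, and 0.00452 with the block). Gad2, which makes GABA, had 1656, 1634, 2212 and 1882 in AM-Veh and 1122, 981, 1849 and 1595 in AM-Allo, also lower in 4 of 4 pairs. Its log2 fold change was −0.45 (limma, unadjusted p = 0.0322, adjusted p = 0.799, and 0.0178 with the block).

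The other genes of that list were not uniform. Gad1, the other GABA-making enzyme, had a log2 fold change of −0.41 (limma, adjusted p = 0.880, and 0.0392 with the block), and Slc32a1, the vesicular GABA transporter, −0.13 (unadjusted p = 0.404), with AM-Allo 2-1 above its numbered partner at 498 normalized counts against 434. Gad1 averaged 1803 normalized counts in AM-Veh astrocyte cultures and 1254 in AM-Veh neuron cultures, so it did not mark interneurons alone. In the same astrocyte libraries Gad2 averaged 8.72 and Slc32a1 0. Npy and Lamp5 were low, with Npy listed at 0 in AM-Allo 1-2, and their unadjusted p-values were 0.358 and 0.915. Lamp5 was higher in AM-Allo in 3 of 4 numbered pairs, and Npy was higher in AM-Allo 2-2, at 125 against 20.7. Cajal-Retzius markers (3 of 5 genes) summed to 12 to 14.7 CPM in AM-Veh and 11.7 to 13.3 in AM-Allo. Among them Tp73, a known marker named here after its values were seen, was listed at 10.3 to 13.0 normalized counts in AM-Veh and 4.0 to 6.84 in AM-Allo, and was under the minimum for testing. Tp73 averaged 333 in AM-Veh astrocyte cultures, so it did not mark Cajal-Retzius cells alone. General neuron markers went the other way in sum, from 1665 to 1859 CPM in AM-Veh to 1846 to 2009 in AM-Allo. In RNA from whole cultures, fewer cells of a type and less RNA per cell cannot be told apart, and the part of these markers in the Reln result was not tested.

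**Figure D2:**
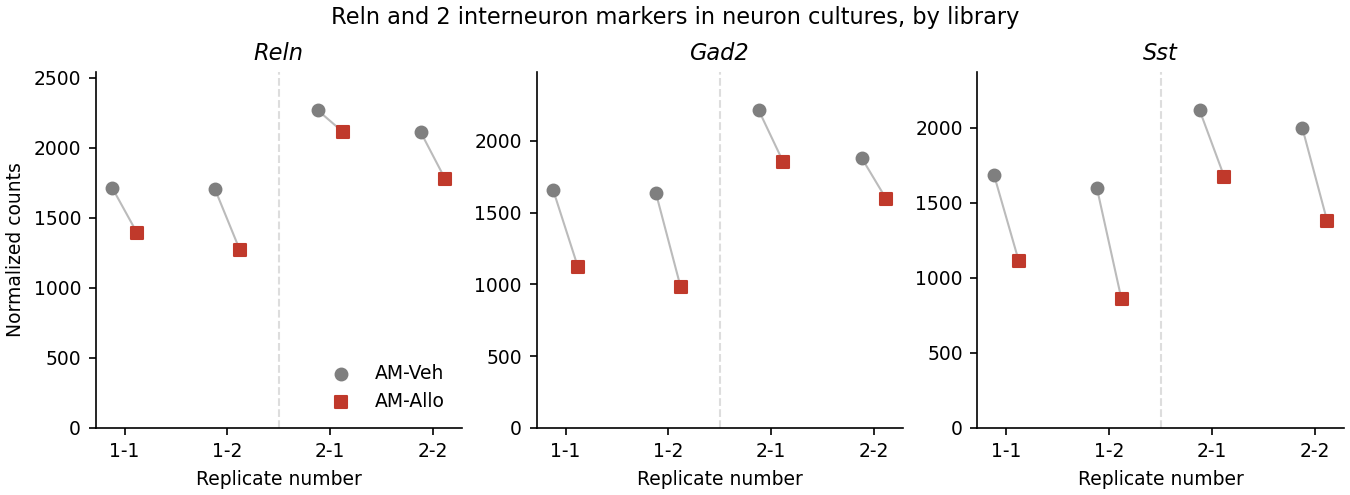
Normalized counts (vertical axis, from 0) of Reln and of the interneuron markers Gad2 and Sst in each neuron library, by replicate number, with grey circles for AM-Veh and red squares for AM-Allo. Lines join libraries of the same number and the dashed line parts the sets. All 3 genes are lower in AM-Allo in each of the 4 pairs, and within each treatment the second set lies higher. Other markers of the list, not shown, were not uniform.

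By a root-mean-square difference of centred log2 levels over the 8 neuron libraries, the genes most like Reln in pattern among 15313 compared were Arhgap22 (0.069), Fads3 (0.090) and Tgfbr2 (0.098), where Reln's own root-mean-square deviation was 0.28. Their log2 fold changes were −0.17, −0.19 and −0.15, each with an unadjusted p above 0.18.

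The signalling receptors had small differences of opposite sign in neuron cultures. Lrp8 had normalized counts of 3194, 3411, 3629 and 3784 in AM-Veh and 3144, 3173, 3506 and 3497 in AM-Allo, in number order. It was lower in AM-Allo in 4 of 4 pairs, with no overlap within either set, although the groups as a whole overlapped. The means were 3504 ± 257 and 3330 ± 199 (SD, n = 4), a log2 fold change of −0.073 (limma, unadjusted p = 0.237, adjusted p = 0.976). With the block the unadjusted p was 0.0225 and the adjusted p 0.356, and leaving out AM-Veh 1-2 or 2-2 gave a blocked unadjusted p of 0.0930 or 0.0717.

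Vldlr had 1909, 1990, 2034 and 2150 in AM-Veh and 2008, 2114, 2160 and 2229 in AM-Allo. It was higher in AM-Allo in 4 of 4 pairs and above within both sets, again with overlap between the whole groups. The means were 2021 ± 101 and 2128 ± 92.9 (SD, n = 4), a log2 fold change of 0.075 (limma, unadjusted p = 0.130, adjusted p = 0.942). With the block the unadjusted p was 0.0372 and the adjusted p 0.421. Leaving out AM-Veh 1-1 or 2-1 gave a blocked unadjusted p of 0.104 or 0.119, and leaving out AM-Allo 1-2 or 2-2 gave 0.124 or 0.0902.

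Lrp1, the endocytic receptor, had 21238, 22267, 21120 and 22215 in AM-Veh and 22426, 22400, 22240 and 23083 in AM-Allo. Every AM-Allo library was above the AM-Veh libraries of its set, and the whole groups overlapped by a narrow margin, since AM-Allo 2-1 lay under AM-Veh 1-2. The means were 21710 ± 616 and 22537 ± 373 (SD, n = 4), a log2 fold change of 0.054 (limma, unadjusted p = 0.110, adjusted p = 0.920, exact permutation p = 0.0571). With the block the unadjusted p was 0.0413 and the adjusted p 0.436, and leaving out AM-Veh 1-1 or 2-1 or AM-Allo 1-1, 1-2 or 2-2 gave an unadjusted p of 0.0663 to 0.154.

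Dab1, the adaptor that carries the signal inside the cell, had 2628, 2518, 2747 and 2739 in AM-Veh and 2573, 2635, 2781 and 2783 in AM-Allo. The groups overlapped and the means, 2658 ± 108 and 2693 ± 106 (SD, n = 4), were 0.019 apart on the log2 scale, with a 95% confidence interval of −0.071 to 0.11 (limma, unadjusted p = 0.653).

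**Figure D3:**
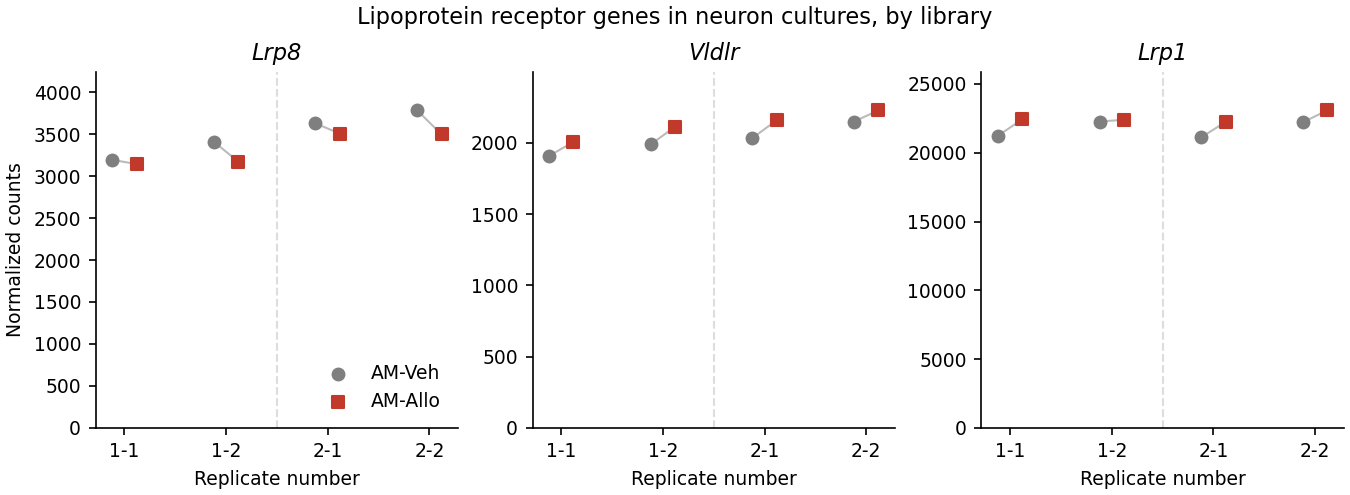
Normalized counts (vertical axis, from 0) of Lrp8, Vldlr and Lrp1 in each neuron library, by replicate number, with grey circles for AM-Veh and red squares for AM-Allo. Lines join libraries of the same number; Lrp8 is lower and Vldlr and Lrp1 are higher in AM-Allo in each of the 4 pairs, by small amounts (log2 fold changes of −0.073, 0.075 and 0.054).

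Clu was the gene with an unadjusted p under 0.05 in neuron cultures. It had 7924, 8429, 8481 and 8697 normalized counts in AM-Veh and 8089, 8085, 7395 and 7948 in AM-Allo. The lower values were in the second set, where AM-Allo stood at 0.893 of AM-Veh without overlap, while the first set differed little (log2 fold change −0.015, limma unadjusted p = 0.651). The means were 8383 ± 327 and 7879 ± 329 (SD, n = 4), a log2 fold change of −0.089 (SE 0.040, limma unadjusted p = 0.0476, adjusted p = 0.871, and unadjusted p = 0.0192 with the block). The exact permutation p was 0.114. In the fit with no block, leaving out AM-Veh 1-2, 2-1 or 2-2 gave an unadjusted p of 0.0900, 0.0989 or 0.123, and leaving out AM-Allo 2-1 or 2-2 gave 0.139 or 0.0642.

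Apoe had 133114, 139707, 143804 and 153739 normalized counts in AM-Veh and 135119, 135390, 148140 and 159730 in AM-Allo. The groups overlapped throughout, and the log2 fold change was 0.019 with a 95% confidence interval of −0.13 to 0.16 (limma, unadjusted p = 0.780). The sign turned without AM-Veh 1-1 (−0.014) or AM-Allo 2-2 (−0.030).

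Sparcl1 had 51765, 53390, 54999 and 57269 in AM-Veh and 51867, 54238, 56813 and 60452 in AM-Allo. It was higher in AM-Allo in 4 of 4 pairs, within the spread of the libraries (log2 fold change 0.038, limma unadjusted p = 0.482, and 0.173 with the block).

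Thbs1 had 199, 174, 197 and 176 normalized counts in AM-Veh and 407, 158, 146 and 145 in AM-Allo. AM-Allo 1-1 was above every other neuron library, and the other 3 AM-Allo libraries were below every AM-Veh library. With all 8 libraries the log2 fold change was 0.045 (95% confidence interval −0.59 to 0.67, limma unadjusted p = 0.878). Without AM-Allo 1-1 it was −0.32 (unadjusted p = 0.00831, adjusted p = 0.744), and in the second set alone −0.35 (unadjusted p = 0.0201, adjusted p = 0.269). The direction of Thbs1 in neuron cultures thus rested on AM-Allo 1-1. The summed level of the mesenchymal markers (6 of 6 genes read) was also highest in AM-Allo 1-1, at 116 CPM against 28.0 to 66.0 in the other 7 libraries. Its 3 collagen genes were highest there, with Col1a1 at 840 normalized counts against 79.0 to 483, Col1a2 at 701 and Col3a1 at 438. Dcn, at 210, was below AM-Veh 1-1 (266) and AM-Veh 1-2 (237), and Pdgfrb, at 351, was below 5 of the other 7 libraries. Their part in the Thbs1 value was not tested.

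In astrocyte cultures AM-Allo was compared with AM-Veh after 24 h. Of the 9 genes, 3 had a higher mean log2 level in AM-Allo and 6 a lower one, with a median log2 fold change of −0.025, against 0.0014 over all 15380 genes tested. By limma, 1 of the 9 (Sparcl1) had an unadjusted p under 0.05, where 7.01% of all genes did (3.72% higher and 3.29% lower), and 0 had an adjusted p under 0.05 (0.00650% of all genes). In 0 of the 9 did the groups fail to overlap (12.5% of all genes). Exact permutation p-values were 0.2 to 0.9, where 3 libraries against 3 cannot go below 0.1.

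Sparcl1 had 22912, 20543 and 20411 normalized counts in AM-Veh libraries 1, 2 and 3 and 18942, 20701 and 18763 in AM-Allo libraries 1, 2 and 3. AM-Allo 1 and 3 were below every AM-Veh library, and AM-Allo 2 lay among them. The means were 21289 ± 1407 and 19469 ± 1071 (SD, n = 3), a log2 fold change of −0.13 (SE 0.050, limma unadjusted p = 0.0226, adjusted p = 0.654). Leaving out AM-Veh 1 gave an unadjusted p of 0.127, leaving out AM-Allo 1 or 3 gave 0.0781 or 0.0827, and fitting no trend of variance with expression gave 0.117.

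Apoe had 58095, 59484 and 56839 in AM-Veh and 53598, 59688 and 51477 in AM-Allo, so that here too AM-Allo 1 and 3 were below every AM-Veh library and AM-Allo 2 was not. The means were 58139 ± 1323 and 54921 ± 4262 (SD, n = 3), a log2 fold change of −0.085 (limma, unadjusted p = 0.113, adjusted p = 0.787). Without AM-Allo 2 it was −0.15 (unadjusted p = 0.00250, adjusted p = 0.438).

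The genes most like Apoe in pattern over the 6 astrocyte libraries, among 15379 compared, were Ahi1, Mrpl36 and Naxe, with root-mean-square differences of 0.018, 0.020 and 0.023 where Apoe's own deviation was 0.079.

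Clu had 126391, 131689 and 123877 in AM-Veh and 119405, 128377 and 120540 in AM-Allo, overlapping groups with a log2 fold change of −0.053 (limma, unadjusted p = 0.258). Thbs1, abundant in these cultures, had 70153, 82369 and 87080 in AM-Veh and 90108, 75653 and 80442 in AM-Allo. Its groups overlapped (log2 fold change 0.041, limma unadjusted p = 0.590), and the sign turned without AM-Veh 1 (−0.049) or AM-Allo 1 (−0.028).

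**Figure D4:**
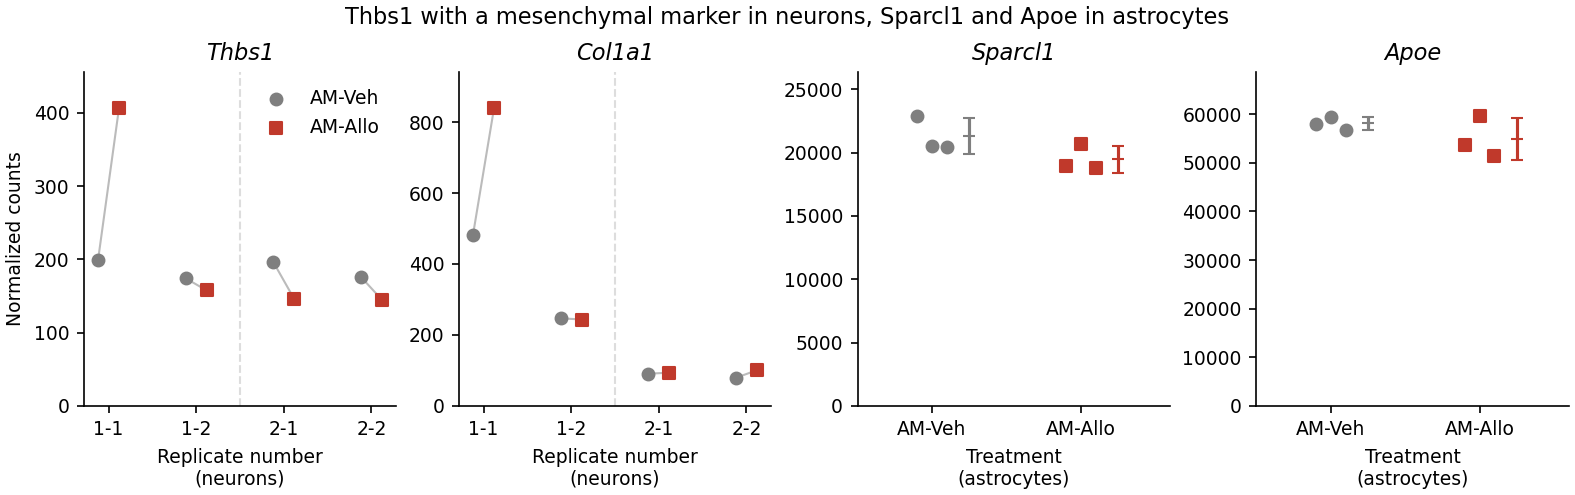
Normalized counts (vertical axes, from 0) of Thbs1 and the mesenchymal marker Col1a1 in each neuron library by replicate number, and of Sparcl1 and Apoe in each astrocyte library with mean and SD (bars), with grey circles for AM-Veh and red squares for AM-Allo. AM-Allo 1-1 stands apart for Thbs1 (407) and Col1a1 (840) in neurons, and 1 of 3 AM-Allo libraries lies among the AM-Veh libraries for Sparcl1 and above them for Apoe in astrocytes.

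Reelin and its signalling pathway were low in astrocyte cultures and showed no difference past the spread of the libraries. Reln had 658, 551 and 595 normalized counts in AM-Veh and 567, 581 and 575 in AM-Allo, a log2 fold change of −0.063 with a 95% confidence interval of −0.22 to 0.090 (limma, unadjusted p = 0.389). That interval overlaps the blocked interval of Reln in neuron cultures, and the difference between the cultures was not tested. Dab1 (log2 fold change −0.013), Lrp8 (0.077) and Vldlr (0.062) had unadjusted p-values of 0.505 to 0.872, and the sign of each turned without 1 of the libraries. Vldlr had an unadjusted p of 0.0419 without AM-Allo 3 (log2 fold change 0.18, adjusted p = 0.738). Lrp1 had 71741, 71567 and 73257 in AM-Veh and 71298, 71625 and 69990 in AM-Allo, with overlap (log2 fold change −0.025, limma unadjusted p = 0.506).

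**Figure D5:**
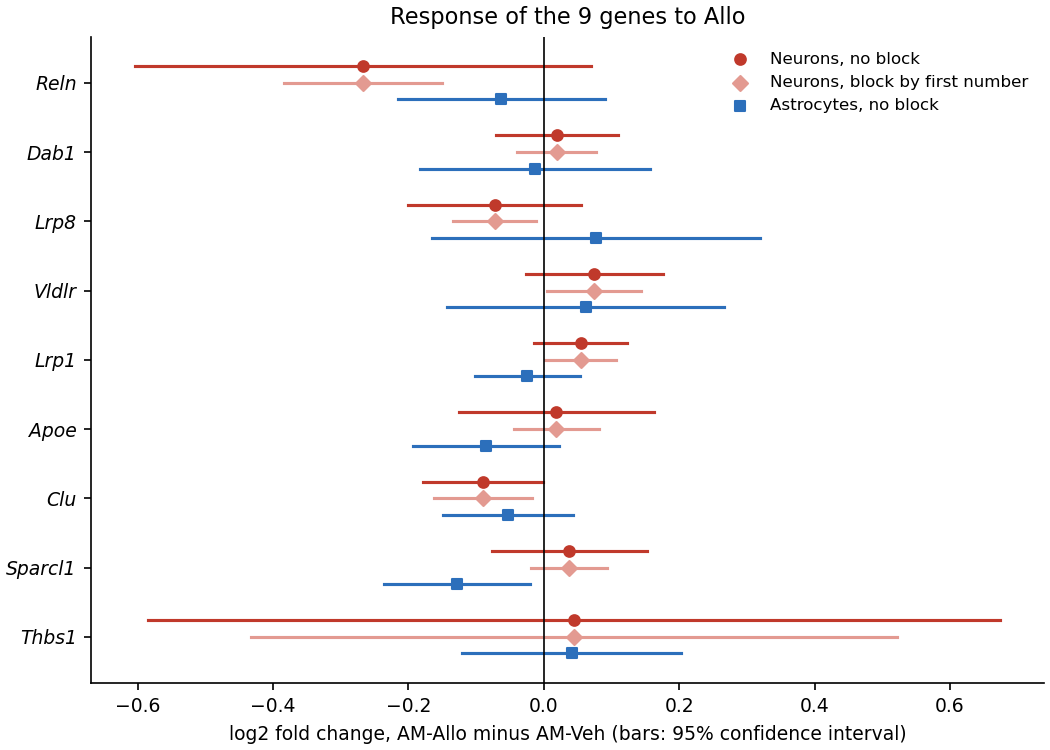
Log2 fold change of AM-Allo over AM-Veh (horizontal axis) for the 9 genes, as points with 95% confidence intervals from limma, in neurons without a block (red circles), in neurons with the set as a block (pale diamonds) and in astrocytes (blue squares). The blocked interval of Reln in neurons (−0.38 to −0.15) is the one farthest from 0, and the widest interval is that of Thbs1 in neurons without the block (−0.59 to 0.67).

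Other genes of the pathway were read from 5 lists, none of which had a gene with an adjusted p under 0.05 in either kind of culture without the block. The counts of these lists stand beside those of all genes tested. Of all genes, 5.69% in neuron and 7.01% in astrocyte cultures had an unadjusted p under 0.05, and 3.95% and 12.5% had no overlap. Reelin is cleaved outside the cell, and of 7 genes of proteases and their regulators tested in neuron cultures, 1 had an unadjusted p under 0.05 in each direction. Adamts2, a metalloprotease that cleaves reelin, averaged 78.3 ± 14.2 in AM-Veh and 116 ± 25.4 in AM-Allo (SD, n = 4), with no overlap (log2 fold change 0.55, limma unadjusted p = 0.0117, adjusted p = 0.693). Plat, tissue plasminogen activator, was lower without overlap, at 2490 ± 139 and 2259 ± 41.5 (log2 fold change −0.14, unadjusted p = 0.00735, adjusted p = 0.650). In astrocyte cultures Plat was the 1 gene of the 7 with an unadjusted p under 0.05, also lower without overlap (11583 ± 386 and 10970 ± 192, SD, n = 3, log2 fold change −0.078, unadjusted p = 0.0441, adjusted p = 0.709).

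Of 28 genes of signalling downstream of Dab1 tested in neuron cultures, 2 were higher and 0 lower at an unadjusted p under 0.05. Over all genes 3.21% were higher and 2.48% lower, so the count is near that share. The median log2 fold change of the list was 0.022. Pik3r1, a regulatory subunit of PI3 kinase, averaged 3912 ± 124 in AM-Veh and 4258 ± 186 in AM-Allo (SD, n = 4; log2 fold change 0.12, limma unadjusted p = 0.00976, adjusted p = 0.661, and 0.0403 with the block). Fyn, a Src-family kinase that phosphorylates Dab1, averaged 13043 ± 216 and 13648 ± 187 (log2 fold change 0.065, unadjusted p = 0.0351, adjusted p = 0.806). Both were higher in every AM-Allo library than in any AM-Veh library, where 3.95% of all genes had no overlap in either direction. In astrocyte cultures 26 were tested, with 2 higher and 1 lower at an unadjusted p under 0.05 and a median of 0.020. Over all genes there 3.72% were higher and 3.29% lower. The genes of the list were Itga3, an integrin subunit that binds reelin (log2 fold change 0.10, unadjusted p = 0.0286), the kinase Akt1 (0.092, 0.0372) and the small GTPase Rap1b (−0.10, 0.0450).

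Among other genes of the lipoprotein receptor family and its adaptors, 19 were tested in each kind of culture. In neuron cultures 1 had an unadjusted p under 0.05: Mylip, the ubiquitin ligase that sends these receptors for degradation, averaged 192 ± 26.4 in AM-Veh and 158 ± 12 in AM-Allo (SD, n = 4; log2 fold change −0.27, limma unadjusted p = 0.0286, adjusted p = 0.795). The medians of this list were 0.0047 and 0.0037.

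Other apolipoproteins and lipid carriers had 0 genes at an unadjusted p under 0.05 by limma, of 9 tested in neuron and 8 in astrocyte cultures, with median log2 fold changes of −0.011 and −0.0096. Other thrombospondins, SPARC family genes and their partners had 0 of 16 in neuron cultures and 2 of 18 in astrocyte cultures (5.69% and 7.01% of all genes). In astrocyte cultures Smoc1, a SPARC-related matrix protein, averaged 99.0 ± 11.7 in AM-Veh and 64.5 ± 6.34 in AM-Allo without overlap (SD, n = 3; log2 fold change −0.61, limma unadjusted p = 0.00274, adjusted p = 0.448). Cd36, a thrombospondin receptor, was low, with 38.5 ± 9.69 normalized counts in AM-Allo, and its groups overlapped (log2 fold change 1.20, unadjusted p = 0.0104, adjusted p = 0.540).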

How the data were processed

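Per the labels and the study's methods, transcripts were quantified with Salmon 0.14 against an Ensembl annotation of the rat, summed to genes with tximport and normalized with DESeq2 1.18.1. The deposited tables hold this normalized signal (counts per gene after the authors' scaling) and variance-stabilized values on a scale close to log2. Low values of the signal were whole multiples of 1 read, within 0.15 reads, in 52.7% to 89.5% of cases, so reads were not recovered. In the deposited variance-stabilized table of neurons the means of the sets agreed within 0.001 in all 15316 rows with a mean of at least 10 normalized counts, against 96 rows in the normalized counts, so the difference between sets had been taken out of that table.

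Samples were grouped by their labels. Values were taken to log2 after adding 1, and limma 3.58.1 (R 4.3.3, eBayes with a trend) tested AM-Allo against AM-Veh within each kind of culture over all genes with a mean of at least 10, with Benjamini-Hochberg adjustment over all of these. Fold changes on this scale understate the change of low genes. An exact permutation test (two-sided, scipy 1.17.1) was run for each member. The script was tested on simulated data.

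The first of the neuron replicate numbers linked the libraries. After removal of group means, AM-Veh and AM-Allo libraries of the same number correlated over genes at 0.296, 0.229, 0.265 and 0.273, those sharing only the first number at 0.185 to 0.236, and those of different sets at −0.15 to −0.32. AM-Veh 1-2 correlated more with AM-Allo 1-1 (0.236) than with AM-Allo 1-2 (0.229), so a pairing by the whole number was not established. The block in the report is the first number.

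The members and gene lists were chosen with earlier results of these data known, and Reln, Lrp8 and Lrp1 are also on a list that the study drew from these libraries, so no direction is independent evidence. Named genes were the members, up to 3 genes a list and culture with the lowest p under 0.05, the 3 genes closest in pattern to Reln and to Apoe, and the most abundant markers. Other markers were chosen after their values were seen. Alternatives were another pseudocount, other filters, scalings and blocks, no variance trend, the variance-stabilized values, each set alone, and leaving out each library, the last also with the block, which was added after the data were seen. One result for a gene of the lists is not reported here.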

Additional observations from a re-analysis of the deposited data

Results flagged for a closer look

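Thbs1 in the AM-Allo neuron libraries was flagged because 1 library stood far from the others: AM-Allo 1-1 had 407 normalized counts and the other 3 had 145 to 158, and the gap was 0.951 of the range, above Dixon's 95% critical value for 4 samples. Over the 18 groups screened, chance flags about 1 in 20.

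Lrp1 was flagged because its response had opposite directions in the cultures. All 4 AM-Allo neuron libraries were above the AM-Veh mean and all 3 AM-Allo astrocyte libraries were below theirs, and the log2 fold changes (0.054 and −0.025) were 0.079 apart. This difference was not tested.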

How the results depend on the processing

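In neurons 1 member had an unadjusted p under 0.05, as did 5.69% of all genes. The count was 5 with the replicate block by first number, where 11.0% of all genes passed, though the members were chosen with earlier results known. It was also 5 with the block by the whole number and with the variance-stabilized values (from which the set means had been removed). It was 3 in the second set alone, and 0 with quantile normalization or without the variance trend. Leaving out each library gave 0 to 2, and 2, 3, 4 or 5 with the block. For settings given here without a share, the share over all genes was not computed, so their counts are not a result about the members. The share in astrocytes was 7.01% in the fit with no block. In astrocytes the count was 1, then 0 without the trend and 2 with the replicate block by number, although the numbers there did not pair the libraries (correlations of −0.0070 to 0.024). Leaving out each library gave 0 to 2. Log2 fold changes changed sign when a library was left out in neurons for Dab1 (−0.0069 to 0.040), Apoe (−0.030 to 0.055), Sparcl1 (−0.0013 to 0.072) and Thbs1 (−0.32 to 0.18), and in astrocytes for Reln (−0.12 to 0.0035), Dab1 (−0.063 to 0.059), Lrp8 (−0.0031 to 0.19), Vldlr (−0.011 to 0.18) and Thbs1 (−0.049 to 0.11). They also turned for Apoe in the first set alone (−0.012), for Thbs1 in the second (−0.35), and with the block for Apoe without AM-Veh 2-1 (−0.0068) or AM-Allo 2-2 (−0.0092) and Thbs1 without AM-Veh 1-2 (−0.073) or AM-Allo 1-1 (−0.31). The cause was not tested. Of 243 refitted fold changes in neurons 184 kept their sign and side of the threshold, and of 126 in astrocytes 111 did.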
